A study of Saccharomyces cerevisiae with 14 samples.

Results

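Zinc transport in Saccharomyces cerevisiae was followed here through 6 genes, the transcription factor ZAP1 and the transporters ZRT1, ZRT2, ZRT3, ZRC1 and COT1. They were found by gene symbol in the annotation of the array platform, which gave 1 plain probe set for each gene. The 6 genes are 6 of 5449 genes with a probe set of their own, and their 6 probe sets are 6 of the 5498 that were tested. The probe sets were 1770812_at for ZAP1 (YJL056C), 1779979_at for ZRT1 (YGL255W), 1779910_at for ZRT2 (YLR130C), 1779093_at for ZRT3 (YKL175W), 1777650_at for ZRC1 (YMR243C) and 1778748_at for COT1 (YOR316C).

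Zinc is a cofactor of many enzymes and of zinc finger proteins, and yeast keeps its free level low by balancing uptake at the plasma membrane with storage in the vacuole. Zap1 senses zinc and, when zinc is scarce, activates genes of uptake and of release from the vacuole, its own gene among them. Zrt1 is the high-affinity and Zrt2 the low-affinity importer at the plasma membrane, Zrt3 moves zinc out of the vacuole, and Zrc1 and Cot1 move it in.

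The cells were those of the industrial wine yeast M2, a diploid, and of M2 nsf1Δ, in which both copies of NSF1 had been replaced with a KanMX marker, so that the deletion strain also carried the marker. NSF1 encodes a zinc finger protein. Both strains fermented the same filtered Riesling must from a single purchase without any other treatment, and RNA was taken at 24 h after inoculation and when 20% and 85% of the sugars had been fermented (the labels speak of total glucose, the paper of sugars). Each strain was measured on 7 Affymetrix Yeast Genome 2.0 arrays, 2 at 24 h, 2 at 20% and 3 at 85%. The labels call the arrays of a group biological replicates, but do not say whether arrays of different stages came from the same flask, or where the third array at 85% came from. One deletion strain stood for the loss of NSF1, and the number of its independent clones was not given. Every value below is a log2 intensity that the authors computed with RMA, which also makes the arrays' distributions equal. It serves to compare samples for 1 gene and not genes with each other. In bulk RNA, fewer cells that express a gene and less of its RNA per cell cannot be told apart. Differences were tested with limma in one fit of the 6 groups. The p-values of a comparison were adjusted over its 5498 probe sets (Benjamini-Hochberg, threshold 0.05). "Passed" means past that threshold, and with 2 or 3 arrays per group their number limits the precision.

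NSF1 itself lay between 8.92 and 13.19 on the 7 M2 arrays and between 2.95 and 4.28 on 6 of the 7 nsf1Δ arrays. The remaining one, nsf1Δ replicate 3 at 85%, gave 5.90, below every M2 array but above the other nsf1Δ arrays. Another array that stood apart was nsf1Δ replicate 2 at 24 h, which over all probe sets had moved 28.0% of the way from the M2 mean at 24 h to that at 20%, where nsf1Δ replicate 1 had moved 9.25%. Leaving out either array changed no call of the 6 genes. The median of the 5498 probe sets was 8.87 to 8.95 on the 14 arrays. The S. pombe probe sets of the array, which served as background, had a median of 3.06 and a 95th percentile of 3.62, and each of the 6 genes lay above the latter on every array. The first 2 principal components took 74.8% and 14.2% of the variance over the 14 arrays.

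In M2 all 6 genes changed between 24 h and 85%. ZAP1, ZRT3 and COT1 rose, and ZRT1, ZRT2 and ZRC1 fell. In nsf1Δ ZRT1 and ZRT2 fell and ZRT3 rose, while ZAP1, ZRC1 and COT1 did not pass. Changes were common over this span: 73.2% of all probe sets passed in M2 (38% higher, 35.2% lower) and 73% in nsf1Δ (37% higher, 36% lower), so the counts of 6 of 6 and 3 of 6 are read against shares of that size. The median difference of the 6 genes was 0.08 in M2, against 0.05 for all probe sets, and 0.14 in nsf1Δ, against 0.02. The genes therefore did not move as a block. The shares over all probe sets also lie on both sides, so the split does not set the 6 genes apart.

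**Figure D1:**
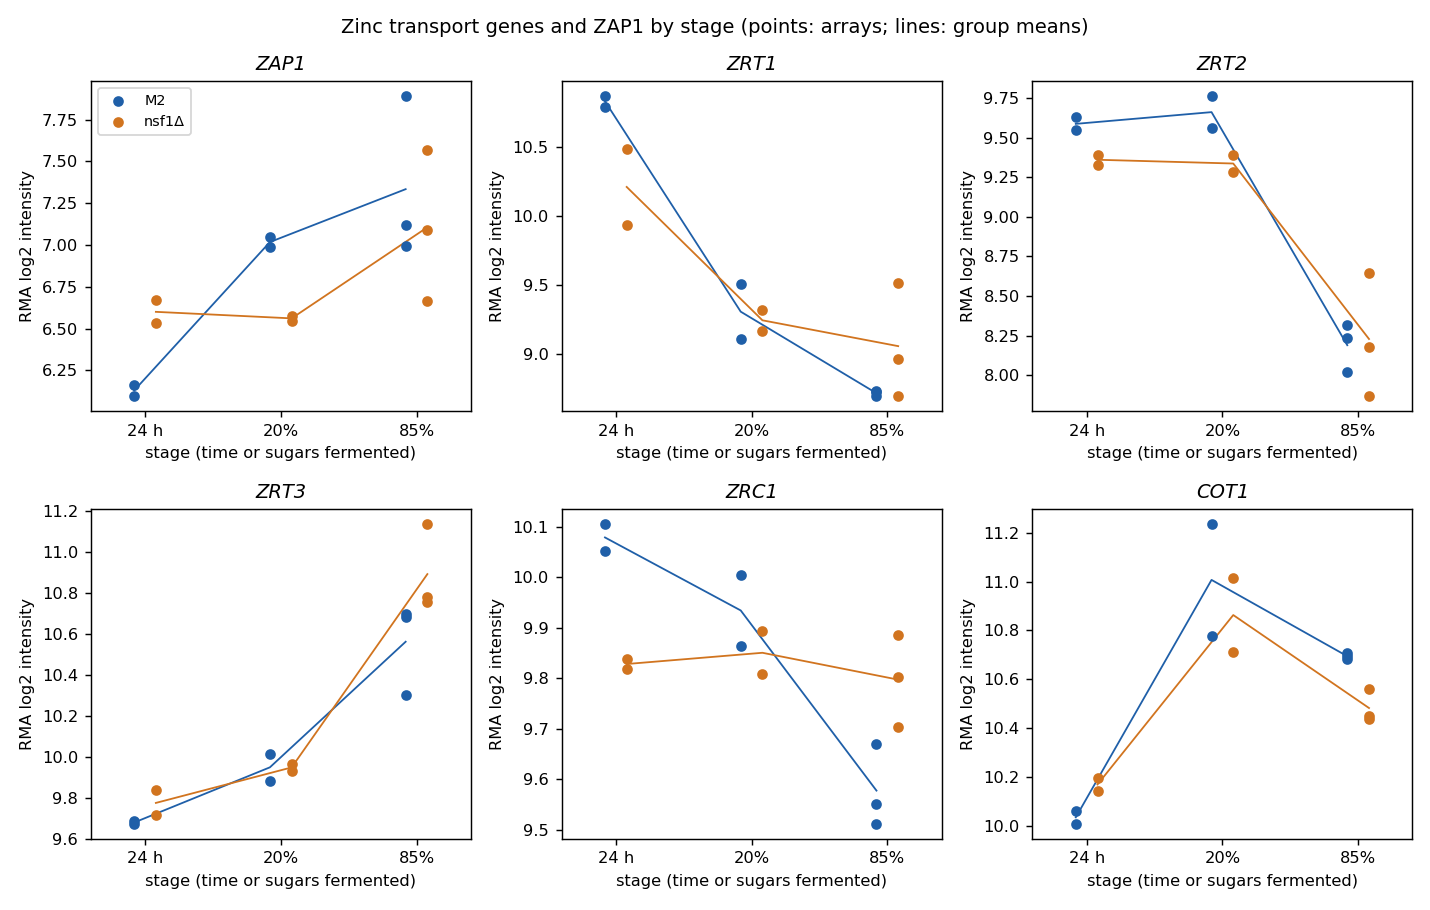
Log2 intensity of the 6 genes (y axis, a separate scale for each gene) at 24 h, 20% and 85% of sugars fermented (x axis). Each point is 1 array, lines join group means, blue is M2 and orange nsf1Δ. ZRT1 fell from 10.80 and 10.87 to between 8.69 and 8.73 in M2, while ZRT3 rose in both strains and COT1 was highest at 20%.

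ZAP1, the zinc-responsive activator, gave 6.10 and 6.16 on the M2 arrays (24 h), 6.99 and 7.05 (20%) and 7.12, 6.99 and 7.89 (85%). The arrays at 24 h lay below all later ones, and at 85% replicate 3 stood above the other two. The rise from 24 h to 20% was 0.89 log2 units (SE 0.28, limma adjusted p = 0.0171), and that from 24 h to 85% was 1.20 (SE 0.26, limma adjusted p = 7.8e-04), a 2.30-fold change. The first of these did not pass without any 1 of the 4 arrays compared (limma adjusted p from 0.0583 to 0.0745). Without replicate 3 at 85% the latter was 0.93 (limma adjusted p = 0.00179). The step from 20% to 85% did not pass (0.32, SE 0.26, limma adjusted p = 0.293).

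In nsf1Δ, ZAP1 gave 6.53 and 6.67 (24 h), 6.58 and 6.54 (20%) and 6.66, 7.09 and 7.57 (85%). The earlier 2 stages overlapped, and the array with the most ZAP1 at 85% was again replicate 3, the one with the higher NSF1 signal. None of the 3 stage differences passed: -0.04 for 20% against 24 h (limma adjusted p = 0.928), 0.54 for 85% against 20% (0.0764) and 0.51 for 85% against 24 h (0.0909). Without replicate 3 at 85% the last 2 were 0.31 and 0.28 (limma adjusted p = 0.277 and 0.325), and without replicate 1 at 85% they were 0.77 and 0.73 and passed (limma adjusted p = 0.016 and 0.0184). Both also passed without M2 replicate 3 at 85% (limma adjusted p = 0.0264 and 0.0333), and the step from 20% to 85% with array weights (0.61, limma adjusted p = 0.0086) and with quantile normalization again (0.58, limma adjusted p = 0.047). By group mean ZAP1 ran from M2 at 24 h, the lowest, through nsf1Δ at 20% and 24 h, M2 at 20% and nsf1Δ at 85% to M2 at 85%, the highest. Of these neighbours, nsf1Δ at 20% and at 24 h overlapped, and so did the 3 highest groups.

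ZRT1, the high-affinity importer, fell early and by the most of the 6 genes in M2. Its M2 values were 10.80 and 10.87 (24 h), 9.11 and 9.51 (20%) and 8.69, 8.72 and 8.73 (85%). The 3 stages did not overlap. The fall was -1.53 from 24 h to 20% (SE 0.24, limma adjusted p = 1.7e-04) and -2.12 from 24 h to 85% (SE 0.22, limma adjusted p = 1.0e-06), which is 4.35-fold. The size of the first was larger than that of 94.7% of all probe sets, and of the second larger than 90.7%. The step from 20% to 85% also passed (-0.59, SE 0.22, limma adjusted p = 0.0274), but it did not without M2 replicate 2 at 20% (-0.39, limma adjusted p = 0.226), replicate 1 at 85% (-0.58, limma adjusted p = 0.0601) or replicate 2 at 85% (-0.60, limma adjusted p = 0.0509).

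ZRT1 was at 10.49 and 9.94 (24 h), 9.17 and 9.32 (20%) and 9.51, 8.96 and 8.69 (85%) on the nsf1Δ arrays. Both 24 h arrays lay above the later ones, and the arrays at 85% spread over the range of those at 20%. ZRT1 fell by 0.97 from 24 h to 20% (SE 0.24, limma adjusted p = 0.00618) and by 1.16 from 24 h to 85% (SE 0.22, limma adjusted p = 2.8e-04), the latter 2.23-fold. The lower array at 24 h was replicate 2, which stood apart over all probe sets as well, and without it the changes were -1.25 and -1.43 (limma adjusted p = 0.00448 and 2.8e-04). Without replicate 1 at 24 h the change to 20% was -0.69 and did not pass (limma adjusted p = 0.0751). By mean, ZRT1 was highest in M2 at 24 h, then in nsf1Δ at 24 h, and these 2 groups overlapped neither with each other nor with a later stage. From there each group overlapped with the next, M2 at 20%, nsf1Δ at 20%, nsf1Δ at 85% and M2 at 85%.

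ZRT2, the low-affinity importer, showed no change that passed up to 20% and fell after it. The M2 arrays gave 9.63 and 9.55 (24 h), 9.76 and 9.56 (20%) and 8.24, 8.32 and 8.02 (85%). The arrays at 24 h and 20% overlapped and those at 85% lay below them all. The difference between 20% and 24 h was 0.07 (95% interval -0.36 to 0.50, limma adjusted p = 0.777), and that between 85% and 20% was -1.47 (SE 0.18, limma adjusted p = 1.2e-05), a 2.77-fold fall.

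On the nsf1Δ arrays ZRT2 gave 9.39 and 9.33 (24 h), 9.39 and 9.28 (20%) and 8.64, 8.18 and 7.87 (85%). Here too the 85% arrays were the lowest, though they were spread more widely than in M2. The fall from 20% to 85% was -1.11 (SE 0.18, limma adjusted p = 1.3e-04), and 20% differed from 24 h by -0.02 (95% interval -0.45 to 0.41, limma adjusted p = 0.939). The order of the means was M2 at 20%, M2 at 24 h, nsf1Δ at 24 h, nsf1Δ at 20%, nsf1Δ at 85% and M2 at 85%. The M2 groups at 20% and 24 h overlapped, as did the nsf1Δ groups at those stages and both strains at 85%, and the strains did not overlap at 24 h or 20%. The importers had different courses. ZRT1 passed in the first interval in both strains and in the second in M2, and ZRT2 passed in the second interval in both. The difference between the 2 genes was not tested.

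ZRT3, the vacuolar exporter, rose late. In M2 it gave 9.67 and 9.68 (24 h), 9.88 and 10.01 (20%) and 10.68, 10.30 and 10.70 (85%). The stages did not overlap, but the first step was small and did not pass (0.27, SE 0.16, limma adjusted p = 0.180). The second was 0.61 (SE 0.15, limma adjusted p = 0.00254), and from 24 h to 85% the rise was 0.88 (SE 0.15, limma adjusted p = 1.1e-04).

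In nsf1Δ, ZRT3 gave 9.71 and 9.83 (24 h), 9.96 and 9.93 (20%) and 11.14, 10.76 and 10.78 (85%). All 3 arrays at 85% lay above every M2 array of that stage. The step from 20% to 85% was 0.94 (SE 0.15, limma adjusted p = 8.9e-05), and that from 24 h to 85% was 1.12 (SE 0.15, limma adjusted p = 1.3e-05), 2.17-fold. By mean the order was nsf1Δ at 85%, M2 at 85%, both strains at 20%, nsf1Δ at 24 h and M2 at 24 h, and of these neighbours those at 20% overlapped.

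ZRC1, the main vacuolar importer of zinc, drifted down in M2. Its values there were 10.11 and 10.05 (24 h), 9.86 and 10.00 (20%) and 9.55, 9.51 and 9.67 (85%). The 3 stages did not overlap, and the range from the highest to the lowest array was small beside that of ZRT1. The fall from 24 h to 85% was -0.50 (SE 0.11, limma adjusted p = 8.6e-04), 1.42-fold. The step from 20% to 85% passed at -0.36 (SE 0.11, limma adjusted p = 0.0105), but without M2 replicate 2 at 20% it was -0.29 and did not (limma adjusted p = 0.087).

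In nsf1Δ, ZRC1 was at 9.82 and 9.84 (24 h), 9.81 and 9.89 (20%) and 9.80, 9.70 and 9.89 (85%). All 7 arrays fell between the M2 arrays at 24 h and those at 85%. The difference between 85% and 24 h was -0.03 (95% interval -0.26 to 0.20, limma adjusted p = 0.806). By mean the order was M2 at 24 h, M2 at 20%, nsf1Δ at 20%, at 24 h and at 85%, and M2 at 85%, where M2 at 20% and the nsf1Δ groups each overlapped with the next and the outer M2 groups stood apart.

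COT1, the other vacuolar importer, which also carries cobalt, was highest in the middle of the course. In M2 it gave 10.06 and 10.01 (24 h), 10.78 and 11.24 (20%) and 10.69, 10.68 and 10.71 (85%). The arrays at 24 h were the lowest, and both arrays at 20% lay above those at 85%. COT1 rose by 0.97 from 24 h to 20% (SE 0.15, limma adjusted p = 1.8e-04), and 85% stayed 0.66 above 24 h (SE 0.14, limma adjusted p = 7.0e-04). The decline from 20% to 85% was -0.31 and did not pass (SE 0.14, limma adjusted p = 0.0617), and without M2 replicate 1 at 20% it was -0.54 and passed (limma adjusted p = 0.00656).

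In nsf1Δ, COT1 gave 10.14 and 10.20 (24 h), 11.01 and 10.71 (20%) and 10.45, 10.44 and 10.56 (85%). The same middle peak was seen. The rise to 20% was 0.69 (SE 0.15, limma adjusted p = 0.00322) and the fall to 85% -0.38 (SE 0.14, limma adjusted p = 0.0264), which did not pass without replicate 1 at 20% (-0.23, limma adjusted p = 0.272), replicate 1 at 85% or replicate 2 at 85% (both -0.36, limma adjusted p = 0.0528 and 0.0652). At 85% COT1 was 0.31 above 24 h and just missed the threshold (limma adjusted p = 0.0557). The order by mean was M2 at 20%, nsf1Δ at 20%, M2 at 85%, nsf1Δ at 85%, nsf1Δ at 24 h and M2 at 24 h, and of these neighbours the 2 groups at 20% overlapped.

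**Figure D2:**
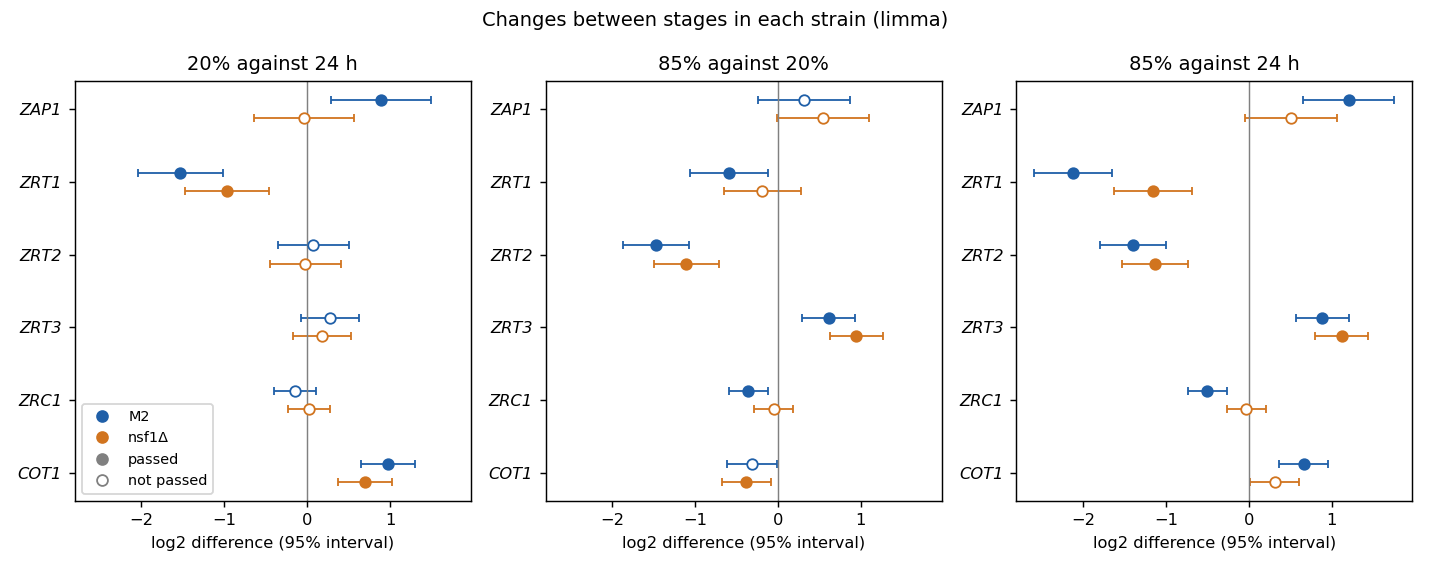
Log2 differences between stages (x axis, bars are 95% intervals of the fit) for the 6 genes (y axis) in M2 (blue) and nsf1Δ (orange), with 1 panel for each pair of stages. Filled points passed the threshold: ZRT1 and COT1 in both strains in the first interval, ZRT2 and ZRT3 in both in the second, and all 6 in M2 but 3 in nsf1Δ from 24 h to 85%.

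Interval by interval, 2 of the 6 genes were higher and 1 was lower at 20% than at 24 h in M2, where 52.9% of all probe sets passed (26.5% higher, 26.4% lower), and 1 was higher and 1 lower in nsf1Δ, where 38.2% passed (19.9% higher, 18.3% lower). Between 20% and 85%, 1 was higher and 3 were lower in M2, where 65% of all probe sets passed (33.1% higher, 31.9% lower), and 1 was higher and 2 were lower in nsf1Δ, where 65.5% passed (31.6% higher, 33.9% lower). Counts over 6 genes are too few to set apart from these shares, and the 3 stage comparisons of a strain share arrays.

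The strains were then compared at each stage. None of the 6 genes passed between nsf1Δ and M2 at 24 h, 20% or 85%, where 0.127%, 0.346% and 8.84% of all probe sets did. At an unadjusted p below 0.05, 1, 0 and 2 of the 6 genes lay past the threshold by limma. Over all 5498 probe sets 539, 810 and 1419 did. By the methods' t-test 1, 1 and 2 of the 6 genes did, and 169, 271 and 849 of all probe sets. Counts over 6 genes are too few to set apart from these.

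The gene below that unadjusted threshold at 24 h was ZRT1, which was 0.62 lower in nsf1Δ (95% interval -1.13 to -0.11, limma adjusted p = 0.385), with both nsf1Δ arrays below both M2 arrays. Its size was larger than that of 97.5% of all probe sets. Without nsf1Δ replicate 2, which stands apart, the difference was -0.35. At 20% the ZRT1 difference was -0.06 (95% interval -0.57 to 0.45) and at 85% it was 0.34 (-0.07 to 0.76, limma adjusted p = 0.292), or 0.52 without nsf1Δ replicate 3 (limma adjusted p = 0.113).

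At 85% the genes were ZRT3 and ZRC1. ZRT3 was 0.33 higher in nsf1Δ (95% interval 0.04 to 0.62, limma adjusted p = 0.137) and ZRC1 was 0.22 higher (0.01 to 0.43, limma adjusted p = 0.172), and for both every nsf1Δ array lay above every M2 array. COT1 went the other way, at -0.21 with no overlap either (95% interval -0.48 to 0.05, limma adjusted p = 0.307).

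ZAP1 was 0.47 higher in nsf1Δ at 24 h (95% interval -0.13 to 1.08, limma adjusted p = 0.603) and 0.46 lower at 20% (-1.06 to 0.15, limma adjusted p = 0.488), each without overlap of the arrays. The sizes were larger than those of 93.5% and 90.1% of all probe sets. At 85% the difference was -0.23, and it was -0.46 without nsf1Δ replicate 3 and 0.05 without M2 replicate 3. Those at 24 h and 20% had the widest intervals among the strain differences of the 6 genes. The ZRT2 differences were -0.23, -0.32 and 0.04 at the 3 stages, with an interval from -0.75 to 0.11 at 20%, and that at 85% was 0.22 without nsf1Δ replicate 3. At 24 h the arrays of the strains did not overlap for any of the 6 genes, even for ZRT3 at 0.10 (95% interval -0.25 to 0.45). With so few arrays a lack of overlap does not set a gene apart. It was not counted over all probe sets. A difference that missed the threshold does not show equal levels, and the intervals give the sizes that these arrays leave possible.

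**Figure D3:**
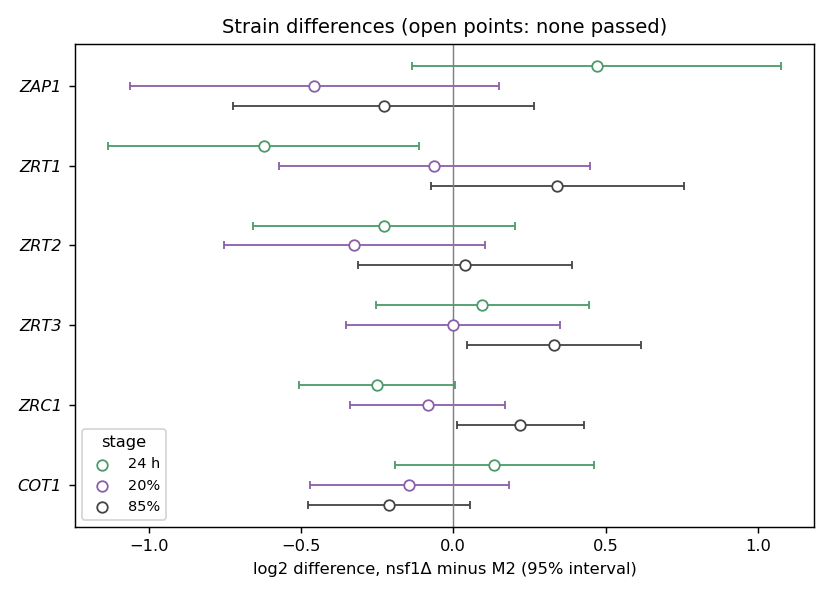
Log2 differences between nsf1Δ and M2 (x axis, nsf1Δ minus M2, bars are 95% intervals of the fit) for the 6 genes (y axis) at 24 h (green), 20% (purple) and 85% (black). No difference passed the adjusted threshold, and the intervals of ZRT1 at 24 h and of ZRT3 and ZRC1 at 85% exclude 0 before adjustment.

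Whether the stage changes differed between strains was tested as an interaction. None of the 6 genes passed for 20% against 24 h, 85% against 20% or 85% against 24 h, where 1.6%, 0.2% and 2% of all probe sets passed (88, 11 and 110). Without nsf1Δ replicate 2 at 24 h the first and the last of these counts were 14 and 11, and without M2 replicate 1 at 20% the middle one was 0. Of the members, 1, 0 and 2 of the 6 lay below an unadjusted limma p of 0.05, where 854, 764 and 951 of the 5498 probe sets did. The change from 24 h to 85% was smaller in nsf1Δ by 0.96 for ZRT1 (95% interval 0.31 to 1.62, limma adjusted p = 0.127) and by 0.47 for ZRC1 (0.14 to 0.80, limma adjusted p = 0.134). For ZAP1 the rise to 20% was 0.93 smaller in nsf1Δ (interaction -0.93, SE 0.40, limma adjusted p = 0.284). The stage change of ZAP1 and of ZRC1 passed in M2 and not in nsf1Δ, but in this fit the test of the difference itself did not show that the strains differed. The ZAP1 call depended on the model: with the replicate number as a block it passed (-0.93, limma adjusted p = 0.0451). Without nsf1Δ replicate 2 at 24 h the ZRT1 interaction was 0.69 (limma adjusted p = 0.433), and without nsf1Δ replicate 3 at 85% it was 1.15 (limma adjusted p = 0.0659).

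The same values can be read as shares of each gene's variance over the 14 arrays. Stage took 91.2% for ZRT2, 88.1% for ZRT3, 85.1% for ZRT1 and 83.9% for COT1, close to the median of 82.8% over all probe sets. It took 55.9% for ZAP1 and 51.3% for ZRC1. The remainder lay in different places: for ZAP1 28.2% was spread within groups, and for ZRC1 36.9% was strain-by-stage interaction, where the medians over all probe sets were 8.98% and 3.29%. Strain as such took 3.12% or less in each of the 6 genes.

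Over the 14 arrays, which share the 3 stages, the genes formed no single group. ZRT2 and ZRT3, the importer that fell late and the vacuolar exporter that rose late, had Pearson's r = -0.859. ZAP1 and ZRT1 had r = -0.815, and ZRT1 had r = 0.700 with ZRT2 and 0.722 with ZRC1. COT1, with its middle peak, had r = -0.103 with ZRT2 and -0.268 with ZRC1, its partner at the vacuole. These r describe the course over the stages and are given without p-values.

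The courses most like those of each gene were sought among 2438 or 2439 genes whose SD over the 14 arrays was at least 0.5. ZRT1 was nearest to MKC7, an aspartyl protease of the cell surface (r = 0.968), TRM10, a tRNA methyltransferase (r = 0.958), and MET3, the ATP sulfurylase of sulfate assimilation (r = 0.956). On the M2 arrays at 85% MKC7 lay between 3.63 and 3.83, just above the background 95th percentile of 3.62. ZRT2 was nearest to PRS4, a phosphoribosyl pyrophosphate synthetase (r = 0.979), ARE2, a sterol acyltransferase (r = 0.979), and RBD2 (r = 0.978), and ZRT3 to MTL1, a sensor of cell wall integrity (r = 0.984), FYV12 (r = 0.983), whose means at 24 h and 20% lay at background, and BOR1, a borate transporter (r = 0.975). Such courses were common for ZRT2 and ZRT3, with 415 and 333 genes at r of 0.9 or above, and 111 for ZRT1.

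The courses of the other 3 genes had few companions. ZAP1 had 5 genes at r of 0.9 or above, led by SFP1, a regulator of ribosome biogenesis genes (r = 0.918), IRC15 (r = 0.917) and YOL036W (r = 0.915). COT1 had 7, led by GLY1, the threonine aldolase (r = 0.927), RRN7, a factor of RNA polymerase I (r = 0.926), and CRF1, a corepressor of ribosomal protein genes (r = 0.917). ZRC1 had 1, MDN1, a ribosome assembly ATPase (r = 0.908), followed by RFC1 and TMA108 (both r = 0.836). All are correlations over arrays that share stage and strain, and say nothing of shared control.

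Of the other genes that carry zinc or take part in its homeostasis, 9 were measured, and in M2 5 were higher and 2 lower at 85% than at 24 h (median 0.85), where 73.2% of all probe sets passed. The largest changes were those of IZH3, IZH2, IZH4 and IZH1, membrane proteins linked to zinc homeostasis, which rose by 2.19, 1.79, 1.64 and 1.06 (limma adjusted p = 1.6e-05, 1.6e-07, 9.8e-08 and 3.5e-06). In nsf1Δ, where 73% passed, 4 were higher and 3 lower (median -0.09), with rises of 1.40 for IZH3, 1.72 for IZH2 and 1.67 for IZH4, and IZH1 at -0.09 (limma adjusted p = 0.516). IZH1 was also the 1 of these 9 genes to pass between strains at 85%, where 8.84% of all probe sets did. Its arrays gave 13.08, 12.98 and 13.20 in M2 and 12.70, 12.44 and 12.52 in nsf1Δ, which do not overlap and differ by -0.53 (SE 0.11, limma adjusted p = 0.0138).

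Low-affinity zinc uptake has routes beside ZRT2. PHO84, a phosphate importer that also takes up zinc, gave 5.95 and 6.31 (24 h), 10.82 and 10.10 (20%) and 5.93, 5.61 and 6.07 (85%) in M2. It rose by 4.33 and fell back by 4.59 on the log2 scale (limma adjusted p = 3.6e-07 and 2.2e-08), and in nsf1Δ it rose by 2.43 and fell by 3.06 (limma adjusted p = 6.9e-05 and 5.1e-07). FET4, a low-affinity carrier of iron, copper and zinc, gave 8.90 and 9.01 (24 h), 8.81 and 9.23 (20%) and 8.20, 8.02 and 8.42 (85%) in M2. In nsf1Δ FET4 gave 9.03 and 8.71 (24 h), 9.70 and 9.58 (20%) and 8.37, 8.09 and 8.11 (85%), so that its arrays at 20% lay above all others. FET4 rose to 20% in nsf1Δ (0.77, SE 0.18, limma adjusted p = 0.00494) and fell in both strains from 20% to 85%, by 0.81 in M2 and by 1.45 in nsf1Δ (limma adjusted p = 7.2e-04 and 5.1e-06).

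**Figure D4:**
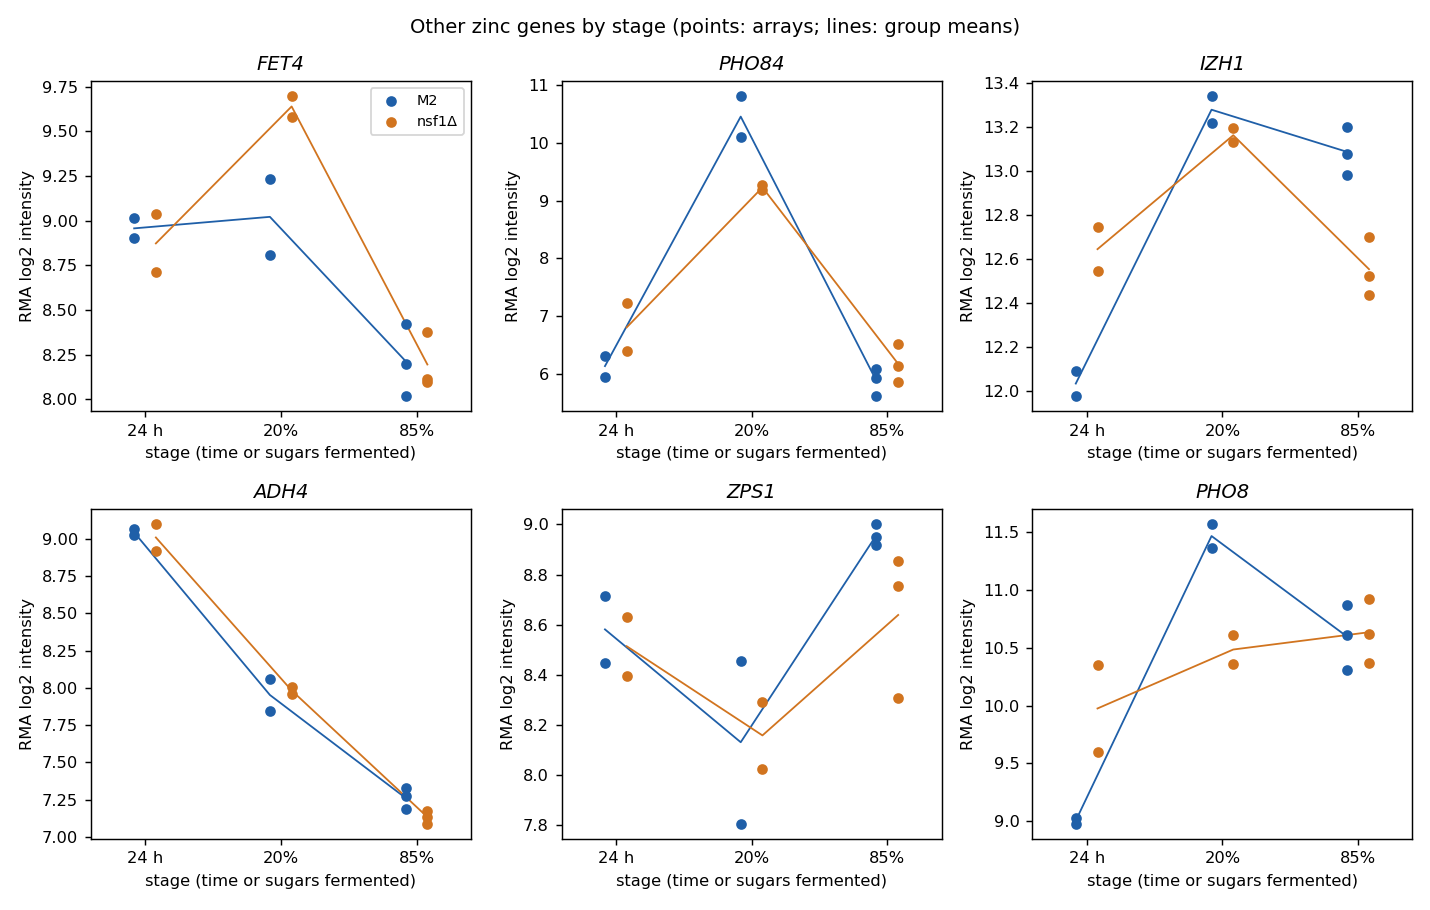
Log2 intensity (y axis, a separate scale for each gene) of FET4, PHO84, IZH1, ADH4, ZPS1 and PHO8 at the 3 stages (x axis), with 1 point per array, lines through group means, M2 in blue and nsf1Δ in orange. PHO84 peaked at 20%, ADH4 fell throughout in both strains, and IZH1 at 85% was between 12.44 and 12.70 in nsf1Δ and between 12.98 and 13.20 in M2.

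Genes reported to be controlled by Zap1 did not move one way. Of 18 listed, 5 of which are also in the list above, 8 were higher and 6 lower at 85% than at 24 h in each strain, with medians of 0.25 in M2 and 0.11 in nsf1Δ, and over all probe sets 73.2% and 73% passed. ADH4, a zinc-responsive alcohol dehydrogenase, fell from 9.06 and 9.02 to 7.18, 7.27 and 7.33 in M2 (-1.78, SE 0.11, limma adjusted p = 1.2e-08) and by 1.88 in nsf1Δ. DPP1, a vacuolar lipid phosphatase, fell by 2.10 in M2 and by 2.44 in nsf1Δ (limma adjusted p = 1.0e-08 and 3.5e-09), and CKI1, choline kinase, fell by 2.37 in nsf1Δ (limma adjusted p = 3.2e-09). NRG2, a repressor of glucose-repressed genes, rose by 1.72 and 2.85 (limma adjusted p = 0.00129 and 1.8e-05) and KTI12 by 2.04 in nsf1Δ (limma adjusted p = 4.0e-06). In M2 these 2 genes moved the same way, the mean of CKI1 from 9.26 at 24 h to 8.05 at 85% and that of KTI12 from 9.51 to 11.12. Between strains at 85%, where 8.84% of all probe sets passed, 2 of the 18 did. These were IZH1 and CKI1, both lower in nsf1Δ, the latter by 0.72 (SE 0.11, limma adjusted p = 0.00308).

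Outside the rule for named genes and chosen after their values were seen, ZPS1 and VEL1 are given as genes known to respond to low zinc. ZPS1 at 85% was 0.38 above 24 h in M2 and 0.12 in nsf1Δ, neither of which passed (limma adjusted p = 0.103 and 0.586). Its mean was lowest at 20%, at 8.13 in M2 and 8.16 in nsf1Δ, against 8.96 and 8.64 at 85%. In each strain its arrays at 20% and 85% did not overlap. VEL1 lay below the 95th percentile of the S. pombe probe sets on all 14 arrays and so has no measured course.

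**Figure D5:**
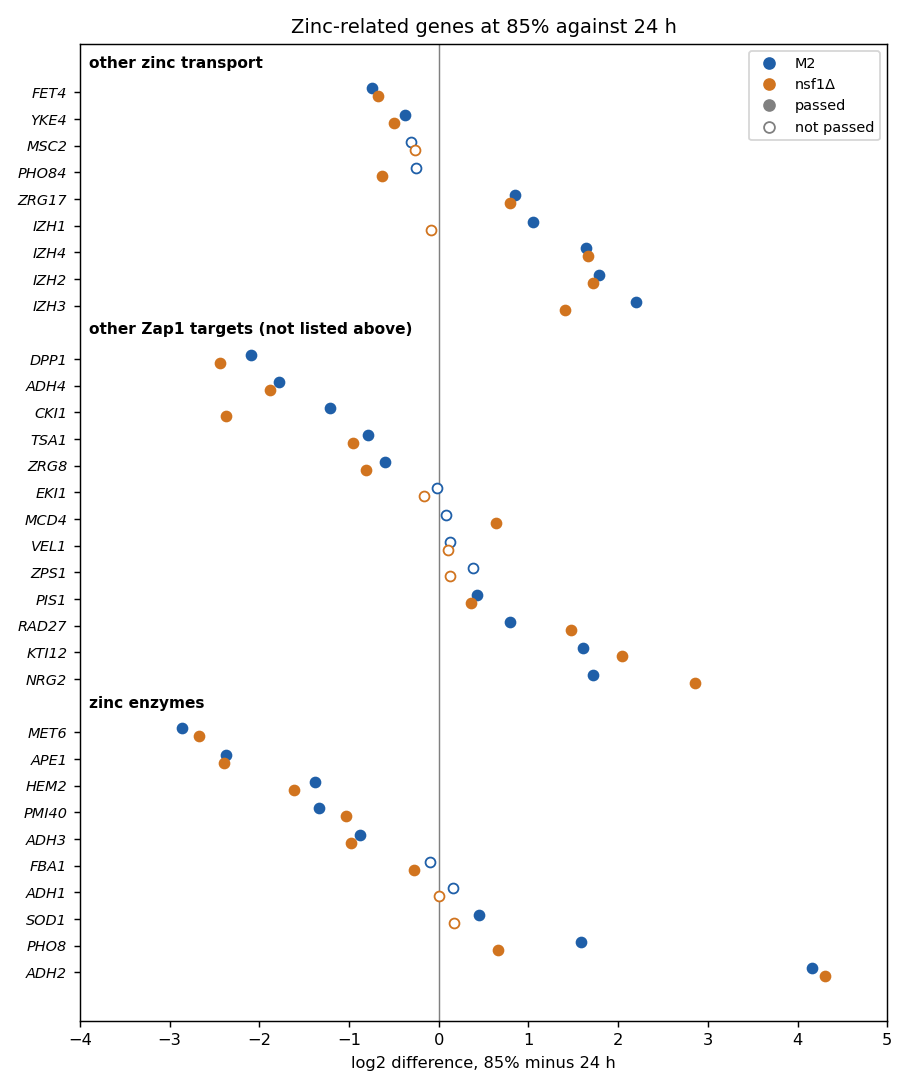
Log2 difference between 85% and 24 h (x axis) for genes of zinc transport, Zap1 targets and zinc-dependent enzymes (y axis, a gene of 2 lists drawn once) in M2 (blue) and nsf1Δ (orange), filled where the threshold was passed. In each list some genes lay on either side of 0, from -2.87 for MET6 to 4.17 for ADH2 in M2.

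Enzymes that bind zinc showed both directions too. Of 10, 3 were higher and 5 lower at 85% than at 24 h in M2 (median -0.49), and 2 were higher and 6 lower in nsf1Δ (median -0.63), beside 73.2% and 73% of all probe sets that passed. ADH2, the alcohol dehydrogenase that oxidises ethanol, rose by 4.17 and 4.30, and MET6, methionine synthase, fell by 2.87 and 2.67 in M2 and nsf1Δ (limma adjusted p = 9.3e-10, 9.1e-10, 8.7e-08 and 1.8e-07). PHO8, the vacuolar alkaline phosphatase, rose by 2.46 to 20% in M2 (limma adjusted p = 6.2e-06).

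Transporters of other metals were compared for their course. Of 11 genes, 3 were higher and 4 lower at 85% than at 24 h in M2 (median -0.20), and 2 were higher and 7 lower in nsf1Δ (median -0.67), again beside 73.2% and 73% of all probe sets. CTR3 and CTR1, the high-affinity copper importers, had a middle peak in M2, with rises of 2.21 and 1.52 to 20% and falls of 2.42 and 1.66 after it. At 85% they differed from 24 h by -0.20 and -0.14 (limma adjusted p = 0.4 and 0.486), where COT1 in M2 was still 0.66 higher. A middle peak that stayed above 24 h was not particular to COT1. CCC1, a vacuolar iron importer, had M2 means of 9.30 (24 h), 10.64 (20%) and 10.22 (85%). Those of CCC2, a copper pump, were 7.55, 8.41 and 8.06. YCF1, a vacuolar carrier of cadmium and glutathione conjugates, and SMF1, a manganese importer, fell by 1.86 and 1.12 from 24 h to 85% in M2 (limma adjusted p = 2.9e-08 and 7.2e-06).

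RNA of marker genes of cell state moved along with the course, and the state itself was not measured. Of 10 haploid-specific genes, which a diploid normally represses, 9 rose from 24 h to 85% in M2, 9 rose and 1 fell in nsf1Δ, and of 10 sporulation genes 10 rose in each strain. Over all probe sets 38% were higher in M2 and 37% in nsf1Δ. Between strains at 85%, where 8.84% of all probe sets passed, 3 of the haploid-specific genes did and none of the sporulation genes. HO and GPA1 were higher in nsf1Δ by 0.70 and 0.50 and RME1 was lower by 0.62 (limma adjusted p = 0.037, 0.0435 and 0.0223). The mean log2 intensity of the haploid-specific list ran from 5.45 to 5.47 on the M2 arrays at 24 h and from 6.96 to 7.15 at 85%, and in nsf1Δ from 5.57 to 5.74 and from 7.09 to 7.28. The mean of the sporulation list ran from 4.85 to 4.93 and from 7.04 to 7.10 in M2, and from 4.89 to 5.21 and from 7.19 to 7.30 in nsf1Δ. At 24 h 1 gene of each list lay at background in each strain. The part of these changes in the values of the 6 genes was not tested.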

How the data were processed

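RNA of M2 and M2 nsf1Δ was measured on 14 arrays. The authors deposited log2 intensities made with RMA (version not given in the sources used here), and no column was left out. Of 10928 rows, the 5498 probe sets of 1 S. cerevisiae gene by the platform annotation were tested. The 1746 probe sets of S. pombe gave the background, and 1 of several genes and 3683 without a gene, controls included, were not used. Groups, taken from the labels, entered one limma fit (version 3.58.1, R 4.3.3), whose degrees of freedom were 8 (residual) and 5.14 (prior). The p-values were adjusted after Benjamini and Hochberg at a threshold of 0.05, and the code was tested on simulated data. Figures were drawn with matplotlib 3.10.9.

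The 6 genes and the lists were chosen with earlier results of these data known. Named are these genes, NSF1, the 3 genes of highest r for each, and of each list at most 4 genes per comparison with the largest differences that passed, given for other comparisons too. ZPS1 and VEL1 were added. Alternatives were the replicate block, leaving out the dimmest 25% of probe sets or each array, testing every row, shifting the arrays or quantile-normalizing them again, array weights, a trend with intensity, fitting a contrast's arrays alone, and the methods' t-test.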

Additional observations from a re-analysis of the deposited data

Results flagged for a closer look

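None of the 6 genes of zinc transport had a stage change that differed between strains by the adjusted test, but 8 genes of the other lists did, by the interaction of strain and stage in limma, where 1.6%, 0.2% and 2% of all probe sets passed for 20% against 24 h, 85% against 20% and 85% against 24 h. For the change from 24 h to 20%, the nsf1Δ change minus that of M2 was -1.60 for CCC2, the copper pump of the Golgi (adjusted p = 0.0156), -1.95 for PHO8 (adjusted p = 0.0156), -0.91 for DPP1 (adjusted p = 0.0382) and -1.90 for PHO84 (adjusted p = 0.0395). For the change from 24 h to 85% it was -1.16 for CKI1 (adjusted p = 0.00828), -1.15 for IZH1 (adjusted p = 0.00828) and -1.23 for CCC2 (adjusted p = 0.032), all by limma. The other two were haploid-specific genes. FAR1, an inhibitor of the cell cycle in the mating response, gave -1.64 for 24 h to 20% and 1.22 for 20% to 85% (limma adjusted p = 0.005 and 0.0337), and RME1, a repressor of meiosis, gave -1.20 for 24 h to 85% (limma adjusted p = 0.0226).

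CCC2 gave 7.51 and 7.59 (24 h), 8.26 and 8.56 (20%) and 8.05, 7.86 and 8.27 (85%) in M2. Its nsf1Δ values were 8.25 and 8.56 (24 h), 7.83 and 7.50 (20%) and 7.98, 7.42 and 7.66 (85%). It therefore rose to 20% in M2 (0.86, limma adjusted p = 0.00305) and fell in nsf1Δ (-0.74, limma adjusted p = 0.0112). PHO8 gave 9.03 and 8.98 in M2 and 9.60 and 10.35 in nsf1Δ at 24 h, and the higher of the latter is replicate 2, the array that stood apart.

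Without nsf1Δ replicate 2 at 24 h, 7 of the 10 differences no longer passed by limma: for the change to 20% CCC2 was -1.44 (adjusted p = 0.103), PHO8 -1.57 (0.0876), PHO84 -1.48 (0.19) and DPP1 -0.96 (0.124), and for the change to 85% CCC2 was -1.07 (0.165), CKI1 -1.09 (0.0567) and RME1 -1.04 (0.141). Both of FAR1 passed, at -1.73 and 1.22 (limma adjusted p = 0.015 and 0.0397). That of IZH1 passed at -1.25 (adjusted p = 0.0378), and it passed in each of 23 alternatives, where CKI1 was lost in 1, CCC2 in 4 for the change to 20% and in 8 for that to 85%, PHO8 in 4, PHO84 in 11 of 22, DPP1 in 12 and RME1 in 4. FAR1 was lost in 0 of 22 for 24 h to 20% and in 11 of 22 for 20% to 85%. Without nsf1Δ replicate 3 at 85%, the array with the higher NSF1 signal, PHO84 (-1.90, limma adjusted p = 0.0523), CCC2 to 85% (-1.21, limma adjusted p = 0.0529) and FAR1 from 20% to 85% (1.13, limma adjusted p = 0.0506) did not pass. The part of either array in these differences was not tested further.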

How the results depend on the processing

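The small number of arrays limits every value, and a lone array left in a group was assumed to vary like the other groups. Over the alternatives that leave out no array, the single-gene results of the 6 genes kept their side of the threshold in 665 cases, gained it in 10 and lost it in 15, and over those that leave out 1 array in 989, 7 and 12. No result that passed turned its direction. Of those that did not pass, the sign turned in 15 cases without 1 array and in 1 with array weights, and none of them was larger than 0.23 in size. The number of the 6 genes that passed ran, over the runs without 1 array, from 2 to 3 for M2 at 20% against 24 h, from 2 to 5 at 85% against 20% (2 without M2 replicate 2 at 20%) and stayed at 6 at 85% against 24 h. In nsf1Δ it ran from 1 to 2 (1 without replicate 1 at 24 h), from 2 to 4 and from 3 to 4, and it stayed at 0 for the strains and the interactions. ZAP1 in M2 at 20% against 24 h lost its call without any 1 of the 4 arrays compared (0.85 to 0.92, limma adjusted p from 0.0583 to 0.0745). By the methods' t-test with Benjamini-Hochberg adjustment, which estimates the spread from 4 to 6 arrays alone, 0 of the 6 genes passed at 20% against 24 h in either strain and 1 at 85% against 20% in each, where limma gave 3, 2, 4 and 3. The fall was general: over all probe sets the t-test gave 0, 1, 1117 and 1898, where limma gave 2907, 2101, 3575 and 3601. At 85% against 24 h the t-test passed 5 of the 6 genes in M2 and 2 in nsf1Δ, where limma gave 6 and 3. ZAP1 in M2 did not pass by it (t-test adjusted p = 0.0841), nor did ZRT1 and ZRT2 in nsf1Δ (0.127 and 0.0823). In nsf1Δ a gene that limma did not call passed by the t-test. Over all probe sets it gave 2499 and 1742, where limma gave 4026 and 4014.

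By the deviations of the arrays, the replicate numbers did not pair the strains throughout. At 85% the correlations of same-numbered arrays were 0.0269, 0.235 and 0.574. There M2 replicates 2 and 3 were nearest to the nsf1Δ array of their own number, and M2 replicate 1 was nearer to nsf1Δ replicate 2 (0.363). With the replicate number as a block, 1 of the 6 genes passed the interaction of strain with 20% against 24 h, where none did without it: ZAP1 at -0.93 (limma adjusted p = 0.0451). ZRT1 in M2 at 85% against 20% was -0.51 with the block (limma adjusted p = 0.0684). At 24 h and 20% the correlations between strains were -0.134 and -0.106, and with the numbers crossed, an alternative chosen after seeing the data, 1 of the 6 genes passed that interaction too.

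Over all probe sets, the strain difference at 85% gave 486 calls, 1020 with array weights, 772 with the crossed block, 309 with all probe sets of the table, 149 with the arrays of that contrast alone and 0 by the methods' t-test (849 before adjustment). The 7 calls between strains at 24 h became 2 with the block, 16 with it crossed and 1 with the contrast alone, and the 19 at 20% became 1, 71 and 1, 91 with array weights, 9 with all probe sets and 10 with quantile normalization again. Without 1 array these counts ran from 1 (M2 replicate 1 at 24 h) to 85 (nsf1Δ replicate 1 at 24 h), from 1 (M2 replicate 1 at 20%) to 72 (M2 replicate 2 at 20%) and, at 85%, from 188 (M2 replicate 2) to 498 (nsf1Δ replicate 1 at 24 h). For 20% against 24 h the t-test gave 0 and 1 calls in M2 and nsf1Δ, where limma gave 2907 and 2101. The interactions called 88, 11 and 110 probe sets, and without 1 array from 7 to 249, from 0 to 22 and from 11 to 194.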
